A study of Homo sapiens with 12 samples.

Results

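Apoptosis regulators are the proteins that decide whether a cell under stress dies, and their transcripts were examined in a human leukemia cell line, a drug-resistant subline and an edited clone of that subline. The set held 38 gene symbols, matched by name in a table of 58395 genes: the anti-apoptotic and pro-apoptotic proteins of the BCL-2 family, the inhibitor of apoptosis (IAP) proteins, caspases, apoptosome and mitochondrial factors, and death receptors with their complex proteins. The symbols matched 39 rows, because DIABLO had 2 Ensembl identifiers. Of the 38 symbols, 36 had enough reads to be tested, and BCL2A1, FAS and the second DIABLO row did not. RNA sequencing covered 3 lines with 4 libraries each. K562 is the parental line, established from chronic myeloid leukemia and driven by the kinase BCR-ABL. The subline K/VP.5 was cloned from K562 and resists etoposide, which kills cells by locking topoisomerase II onto the DNA it has cut. Edit-3 (K/VP.5/edit-3) is 1 clone of K/VP.5. Purified Cas9 with a guide and a single-strand repair oligonucleotide had been used in it to change the 5′ splice site at the boundary of exon 19 and intron 19 of TOP2A, the gene of topoisomerase IIα. The labels describe a single culture regime for the 3 lines, with 0.5 µM etoposide given in alternate weeks, so all groups may share the drug, and whether K562 was spared is not stated. Effects of resistance or of the edit and differences between single clones cannot be told apart. Separate cultures are not named for the 4 replicates, so the p-values speak of the spread over these samples only, and that spread may be technical.

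Apoptosis runs along a mitochondrial route and a receptor route. On the mitochondrial route, BH3-only proteins sense damage and bind the anti-apoptotic BCL-2 proteins, and the effectors BAX and BAK1 open the outer mitochondrial membrane once they are free. Cytochrome c then assembles with APAF1 and caspase 9 into the apoptosome, and IAP proteins restrain the caspases. On the receptor route, ligands such as TRAIL engage death receptors, which recruit FADD and caspases 8 and 10 under the control of CFLAR. Etoposide kills largely through the mitochondrial route, and K562 cells are known for resisting apoptosis through BCR-ABL signalling and BCL-XL.

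Library totals ran from 25.3 to 37.1 M reads, and mitochondrial genes took 0.712% to 1.22% of them. K562 replicate 4 stood furthest from its line, with a mean correlation of 0.988 in log2 CPM (CPM being read counts scaled to library size) with the other K562 libraries, and results that rest on it are given without it as well. The targeted gene TOP2A was measured at 519, 359 and 416 CPM in K562, K/VP.5 and edit-3. Of 12 erythroid markers, 11 were over 1 CPM in all 12 libraries. Of 16 markers of other cells, 8 were under 1 CPM in all libraries, and MS4A1 and KRT5 had 0 reads. The summed level of these 16 markers ranged from 218 to 250 CPM in K562, 378 to 459 in K/VP.5 and 2058 to 3329 in edit-3. COL1A2 and EPCAM made up most of it, and without these genes the sums were 42.9 to 85.7, 29.7 to 44.2 and 27.3 to 63.3 CPM. The part of these markers in the results was not tested.

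In K/VP.5 versus K562, 6 of the 36 tested members were higher and 12 were lower (edgeR's quasi-likelihood test, Benjamini-Hochberg adjusted p under 0.05). That is 18 members called, where 36.6% of the 18286 genes tested were called, 18.3% in each direction. Their median log2 fold change was -0.12, against 0.003 for all genes tested. In edit-3 versus K/VP.5, 9 members were higher and 2 lower, a total of 11, where 23.6% of all genes were called, 12.9% higher and 10.6% lower. Here the median was 0.17, against 0.004 for all genes. In edit-3 versus K562, 10 members were higher and 10 lower, where 39.2% of all genes were called, 20.6% higher and 18.6% lower, with a median of 0.08 against 0.005. At least 2-fold, 4 members were called in each comparison, against 13.4%, 8.32% and 15% of all genes. Lines did not overlap between libraries for 18, 13 and 17 members in the 3 comparisons, against 37.4%, 26% and 34% of all genes. The 3 comparisons share libraries in pairs, so their values are given side by side and not counted against each other. With the replicate numbers as a block, 21 members were called in K/VP.5 versus K562. Without K/VP.5 replicate 4, or without K562 replicate 1, 3 members were called higher there in place of 6. Without K562 replicate 1, 3167 of 18758 genes were called higher in the same comparison. Without edit-3 replicate 4, 7 members were called in edit-3 versus K/VP.5 in place of 11. In edit-3 versus K562 without K562 replicate 4, 15 members were called higher in place of 10. Where no count over all genes is given for a refit, its member count does not show a change particular to the members.

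**Figure D1:**
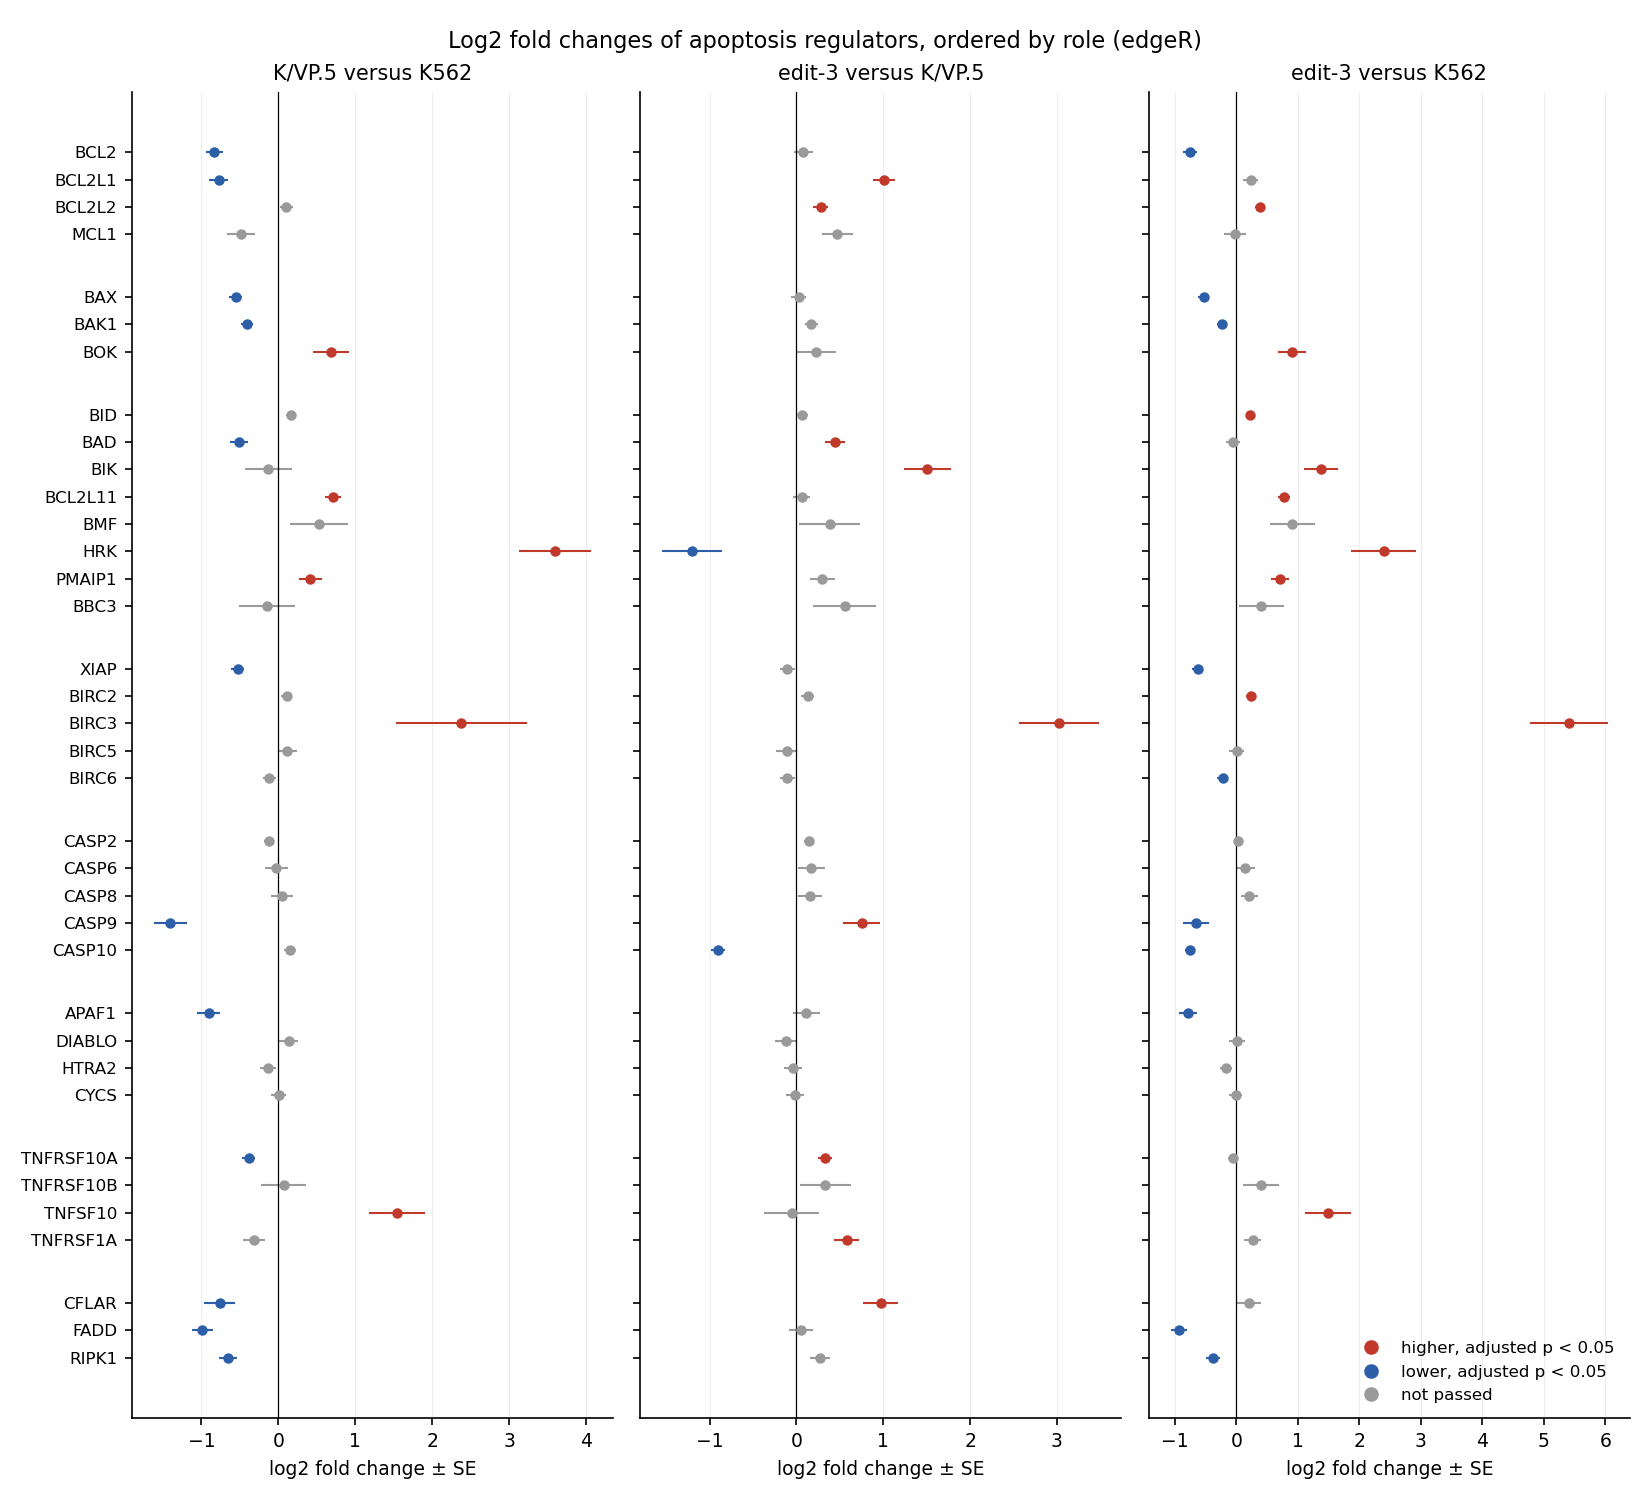
Log2 fold changes (x axis, ± SE) of the 36 tested members, 1 per line of the y axis and ordered by role, in 3 panels for K/VP.5 versus K562, edit-3 versus K/VP.5 and edit-3 versus K562. Red points are higher and blue points lower at an adjusted p under 0.05, grey points did not pass. HRK and BIRC3 lie furthest to the right in the first panel, and BIRC3 in the other panels.

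**Figure D2:**
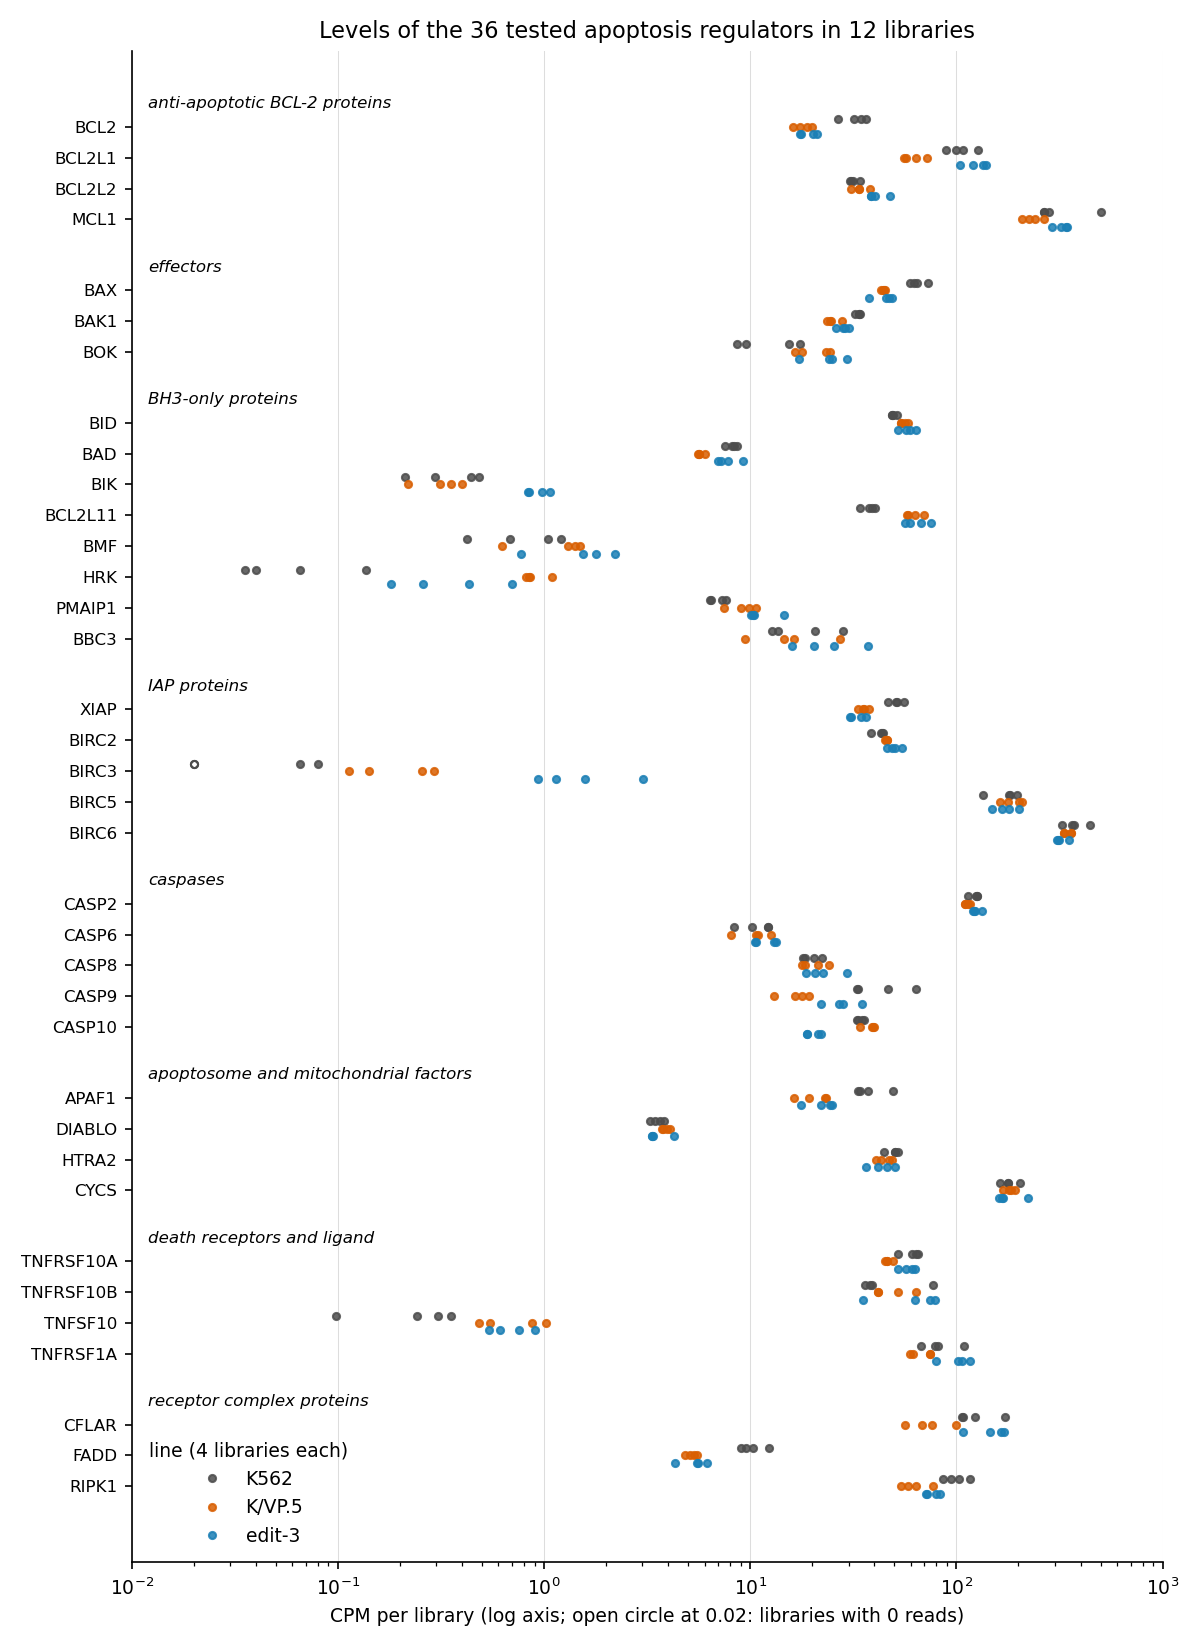
CPM in each of the 12 libraries (x axis, log scale) for the 36 tested members (y axis, grouped by role), with 4 points per line. Open circles at 0.02 mark K562 libraries with 0 BIRC3 reads. Single libraries span from under 0.1 CPM (HRK and BIRC3 in K562) to 501 CPM (MCL1 in K562 replicate 4).

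Among the anti-apoptotic BCL-2 proteins, BCL2 and BCL2L1 transcripts were lower in K/VP.5 than in K562. BCL2L1 was higher again in edit-3 than in K/VP.5, and BCL2 did not pass in that comparison. BCL2 (chr18:63123346-63320128, minus strand, GRCh38), the founding member of the family, stood at 31.9, 26.6, 34.4 and 36.4 CPM in K562. It was at 18.8, 16.1, 19.99 and 17.5 CPM in K/VP.5 and at 20.2, 21.2, 17.7 and 17.4 CPM in edit-3. Every K562 library was above every library of the other lines, and K/VP.5 and edit-3 overlapped. The log2 fold change was -0.84 (SE 0.11, adjusted p = 2.6e-05) in K/VP.5 versus K562, 0.08 (adjusted p = 0.66) in edit-3 versus K/VP.5 and -0.76 (adjusted p = 5.8e-05) in edit-3 versus K562.

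BCL2L1 (chr20:31664452-31723989, minus strand), which encodes BCL-XL, was at 88.9, 108, 99.5 and 128 CPM in K562, at 56.7, 63.7, 55.6 and 72.0 CPM in K/VP.5 and at 105, 139, 121 and 134 CPM in edit-3. All 4 K/VP.5 libraries lay below the 8 others, while K562 and edit-3 overlapped. BCL2L1 fell by 0.77 on the log2 scale in K/VP.5 versus K562 (SE 0.12, adjusted p = 0.00014) and was 2.01-fold higher in edit-3 than in K/VP.5 (log2 1.01, SE 0.12, adjusted p = 2.6e-05). For edit-3 versus K562 the value was 0.23 (adjusted p = 0.15). Without K562 replicate 4 that value was 0.33 (adjusted p = 0.030). The antisense gene ABALON covers 43.0% of the BCL2L1 exon bases, and without a stated strand setting its reads cannot be separated.

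MCL1, a short-lived protein that binds BAK1 and BIM, had the highest level per kilobase of exon in this group, 75.2, 53.5 and 74.2 CPM per kb in K562, K/VP.5 and edit-3. Its libraries held 266, 282, 265 and 501 CPM in K562, 224, 207, 239.8 and 265 in K/VP.5 and 291, 323, 341 and 343 in edit-3. K562 replicate 4 stood far above the other K562 libraries, and all edit-3 libraries were above all K/VP.5 libraries. MCL1 did not pass in K/VP.5 versus K562 (log2 fold change -0.49, SE 0.18, adjusted p = 0.0502), in edit-3 versus K/VP.5 (0.47, adjusted p = 0.081) or in edit-3 versus K562 (-0.02, adjusted p = 0.95). Both values lay near the threshold. In K/VP.5 versus K562 MCL1 was called lower in 8 of 15 alternatives, among them the block on replicate numbers (-0.45, adjusted p = 0.015) and DESeq2 (adjusted p = 0.022), with adjusted p from 0.015 to 0.16 over all of them. In edit-3 versus K/VP.5, which does not involve K562 replicate 4, it was called higher in 4 of 15 alternatives. These were the fit of only these lines (0.48, adjusted p = 0.0012), DESeq2 (adjusted p = 0.045) and the block with all lines (adjusted p = 0.016) or only these (adjusted p = 0.00053), and the range was 0.00053 to 0.24. Edit-3 and K/VP.5 libraries numbered 2 and 3 did not deviate together (r = -0.11 each), so the block calls there rest on numbers without a shown pairing. Without K562 replicate 4 the values were -0.21 (adjusted p = 0.069) in K/VP.5 versus K562 and 0.25 (adjusted p = 0.029) in edit-3 versus K562.

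BCL2L2, which encodes BCL-w, ranged from 30.5 to 34.0 CPM in K562, 30.8 to 38.01 in K/VP.5 and 38.7 to 47.6 in edit-3. It was higher in edit-3 than in K562 (log2 0.38, SE 0.09, adjusted p = 0.0028). The call of 0.28 against K/VP.5 (adjusted p = 0.033) was lost without any of K/VP.5 replicates 1, 2 or 4 or edit-3 replicates 3 or 4 (adjusted p up to 0.14). With no filter on low counts that call was also lost (edgeR adjusted p = 0.089). Exons of BCL2L2-PABPN1 and PPP1R3E cover 24.3% of the BCL2L2 exon bases, and how reads there were assigned is not known. BCL2A1 had 3 reads in all, all of them in K562 replicate 3. In the per-kilobase sum of the 5 anti-apoptotic genes, MCL1 made up 63.1%, 65.3% and 60.2% in K562, K/VP.5 and edit-3, and BCL2L1 27.8%, 22.9% and 30.5%. BCL2 contributed 2.42%, 1.89% and 1.33%, so its change took place at a low level beside MCL1 and BCL2L1.

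The effectors BAX and BAK1, which form the pores of the outer mitochondrial membrane, were both lower in K/VP.5 and edit-3 than in K562. BAX (chr19:48954815-48961798, plus strand) stood at 64.7, 62.3, 72.6 and 59.6 CPM in K562, at 44.4, 43.9, 45.0 and 42.9 CPM in K/VP.5 and at 45.8, 37.9, 48.6 and 47.3 CPM in edit-3. The K562 libraries were all above the other 8, and the K/VP.5 values fell within the range of edit-3. BAX fell by 0.56 in K/VP.5 versus K562 (SE 0.09, adjusted p = 0.00012), with 0.03 (adjusted p = 0.86) in edit-3 versus K/VP.5 and -0.53 (adjusted p = 0.00018) in edit-3 versus K562. BAK1 had 33.7, 34.0, 33.5 and 32.2 CPM in K562, 24.7, 27.9, 24.5 and 23.6 in K/VP.5 and 28.8, 26.1, 30.1 and 28.2 in edit-3. K562 was again above both other lines without overlap. The BAK1 log2 fold changes were -0.41 (SE 0.08, adjusted p = 0.00058), 0.17 (adjusted p = 0.13) and -0.24 (adjusted p = 0.021) in the same order. The last call was lost without edit-3 replicate 2 (adjusted p = 0.052) or with no filter on low counts (edgeR adjusted p = 0.085).

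BOK, a BAX relative that can act without BH3-only input, had the opposite sign. It ranged from 8.65 to 17.5 CPM in K562, 16.4 to 24.3 in K/VP.5 and 17.2 to 29.3 in edit-3, and all pairs of lines overlapped. BOK was higher by 0.90 in edit-3 than in K562 (SE 0.23, adjusted p = 0.0074). The value of 0.68 in K/VP.5 versus K562 (adjusted p = 0.036) lost its call without K562 replicates 1 or 3 or K/VP.5 replicates 2 or 4 (adjusted p = 0.087 to 0.096). With no filter on low counts that call was also lost (edgeR adjusted p = 0.11).

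Of the 8 BH3-only genes, 3 were higher and 1 lower in K/VP.5 versus K562, 2 were higher and 1 lower in edit-3 versus K/VP.5, and 5 were higher and none lower in edit-3 versus K562 (edgeR, adjusted p under 0.05). Of all genes tested, 18.3% were higher and 18.3% lower in the first comparison, 12.9% and 10.6% in the second and 20.6% and 18.6% in the third. BCL2L11 (chr2:111119378-111168447, plus strand) encodes BIM, which binds all anti-apoptotic members. Its transcript was at 39.2, 40.4, 37.8 and 34.1 CPM in K562, at 58.2, 63.0, 69.3 and 57.3 CPM in K/VP.5 and at 67.4, 75.4, 59.5 and 56.2 CPM in edit-3. K562 lay below the other lines in every library, and K/VP.5 and edit-3 overlapped. BCL2L11 was 1.63-fold higher in K/VP.5 than in K562 (log2 0.71, SE 0.10, adjusted p = 4.7e-05). It differed by 0.06 (adjusted p = 0.70) in edit-3 versus K/VP.5 and by 0.77 (adjusted p = 1.9e-05) in edit-3 versus K562.

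HRK (harakiri, chr12:116856144-116881441, minus strand) binds BCL-2 and BCL-XL. It had 8 reads in K562, 115 in K/VP.5 and 47 in edit-3. The libraries were at 0.0353, 0.0654, 0.136 and 0.0402 CPM in K562, at 0.849, 0.814, 1.09 and 0.852 CPM in K/VP.5 and at 0.258, 0.700, 0.432 and 0.181 CPM in edit-3. The 3 lines did not overlap, with edit-3 between the others. HRK rose 12.1-fold in K/VP.5 versus K562 (log2 3.59, SE 0.47, adjusted p = 2.3e-05), was lower by 1.20 in edit-3 than in K/VP.5 (SE 0.35, adjusted p = 0.020) and higher by 2.39 in edit-3 than in K562 (adjusted p = 0.0020). The call in edit-3 versus K/VP.5 was lost without K/VP.5 replicate 3 (adjusted p = 0.062) or edit-3 replicate 4 (adjusted p = 0.060). HRK passed the filter on low counts through K/VP.5, where it was highest, and fits of edit-3 and K562 alone left it out. The call in edit-3 versus K562 rests on that entry.

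BIK, a BH3-only protein of the endoplasmic reticulum, was higher in edit-3 than in either of the other lines. It had 0.212, 0.294, 0.443 and 0.482 CPM in K562, 0.311, 0.354, 0.218 and 0.399 in K/VP.5 and 0.839, 1.07, 0.972 and 0.843 in edit-3. All edit-3 libraries were above the other 8, which overlapped. BIK was 2.84-fold higher in edit-3 than in K/VP.5 (log2 1.51, SE 0.27, adjusted p = 0.00076) and 2.597-fold higher than in K562 (adjusted p = 0.00085), from 40, 42 and 113 reads in K562, K/VP.5 and edit-3. Its value in K/VP.5 versus K562 was -0.13 (adjusted p = 0.81).

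BAD, which is held inactive by survival kinases, had 7.52, 8.38, 8.15 and 8.60 CPM in K562, 5.66, 6.05, 5.56 and 5.67 in K/VP.5 and 7.01, 7.23, 7.81 and 9.21 in edit-3. K/VP.5 was below both other lines in every library. BAD fell by 0.51 in K/VP.5 versus K562 (SE 0.11, adjusted p = 0.0026), was higher by 0.45 in edit-3 than in K/VP.5 (adjusted p = 0.010) and stood at -0.06 (adjusted p = 0.71) in edit-3 versus K562. The rise was lost without edit-3 replicate 4 (0.34, adjusted p = 0.056) or with no filter on low counts (0.43, edgeR adjusted p = 0.052). Exons of GPR137 on the other strand cover 23.7% of the BAD exon bases, and how reads there were assigned is not known. PMAIP1, the p53 target that encodes NOXA, ranged from 6.38 to 7.64 CPM in K562, 7.50 to 10.6 in K/VP.5 and 10.1 to 14.6 in edit-3. It was higher by 0.71 in edit-3 than in K562 (SE 0.15, adjusted p = 0.0013). Its call of 0.41 in K/VP.5 versus K562 (adjusted p = 0.039) was lost without K562 replicates 1 or 2 or K/VP.5 replicates 1, 3 or 4 (adjusted p = 0.057 to 0.12).

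BID, which caspase 8 cleaves to link the receptor route to the mitochondria, ranged from 48.7 to 51.3 CPM in K562, 54.1 to 58.0 in K/VP.5 and 52.1 to 63.8 in edit-3. The K562 libraries were below both other lines without overlap. K/VP.5 versus K562 gave 0.16 (adjusted p = 0.088), and 0.17 (adjusted p = 0.022) with the replicate block on these lines alone or 0.17 (adjusted p = 0.043) with these lines and no block. BID was higher by 0.23 in edit-3 than in K562 (adjusted p = 0.019), a call lost without any of K562 replicates 1, 2 or 3 or edit-3 replicates 1 or 4 (adjusted p = 0.05006 to 0.063). That call was also lost in edgeR fits of edit-3 and K562 alone, without the block (adjusted p = 0.072) or with it (0.087). With no filter on low counts it was lost as well (adjusted p = 0.084). BBC3, which encodes the p53 target PUMA, did not pass in any comparison (adjusted p = 0.80, 0.32 and 0.42) and ranged from 9.41 to 37.4 CPM over the 12 libraries. BMF did not pass either (log2 fold changes 0.53, 0.39 and 0.91, adjusted p = 0.31, 0.48 and 0.064). Under the replicate block BMF was called higher in K/VP.5 than in K562 (0.54, adjusted p = 0.042), but not when the block was fitted to these lines alone (0.54, adjusted p = 0.052). In edit-3 versus K562 it was called without K562 replicate 4 (1.12, adjusted p = 0.034) or without edit-3 replicate 1 (1.14, adjusted p = 0.015).

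**Figure D3:**
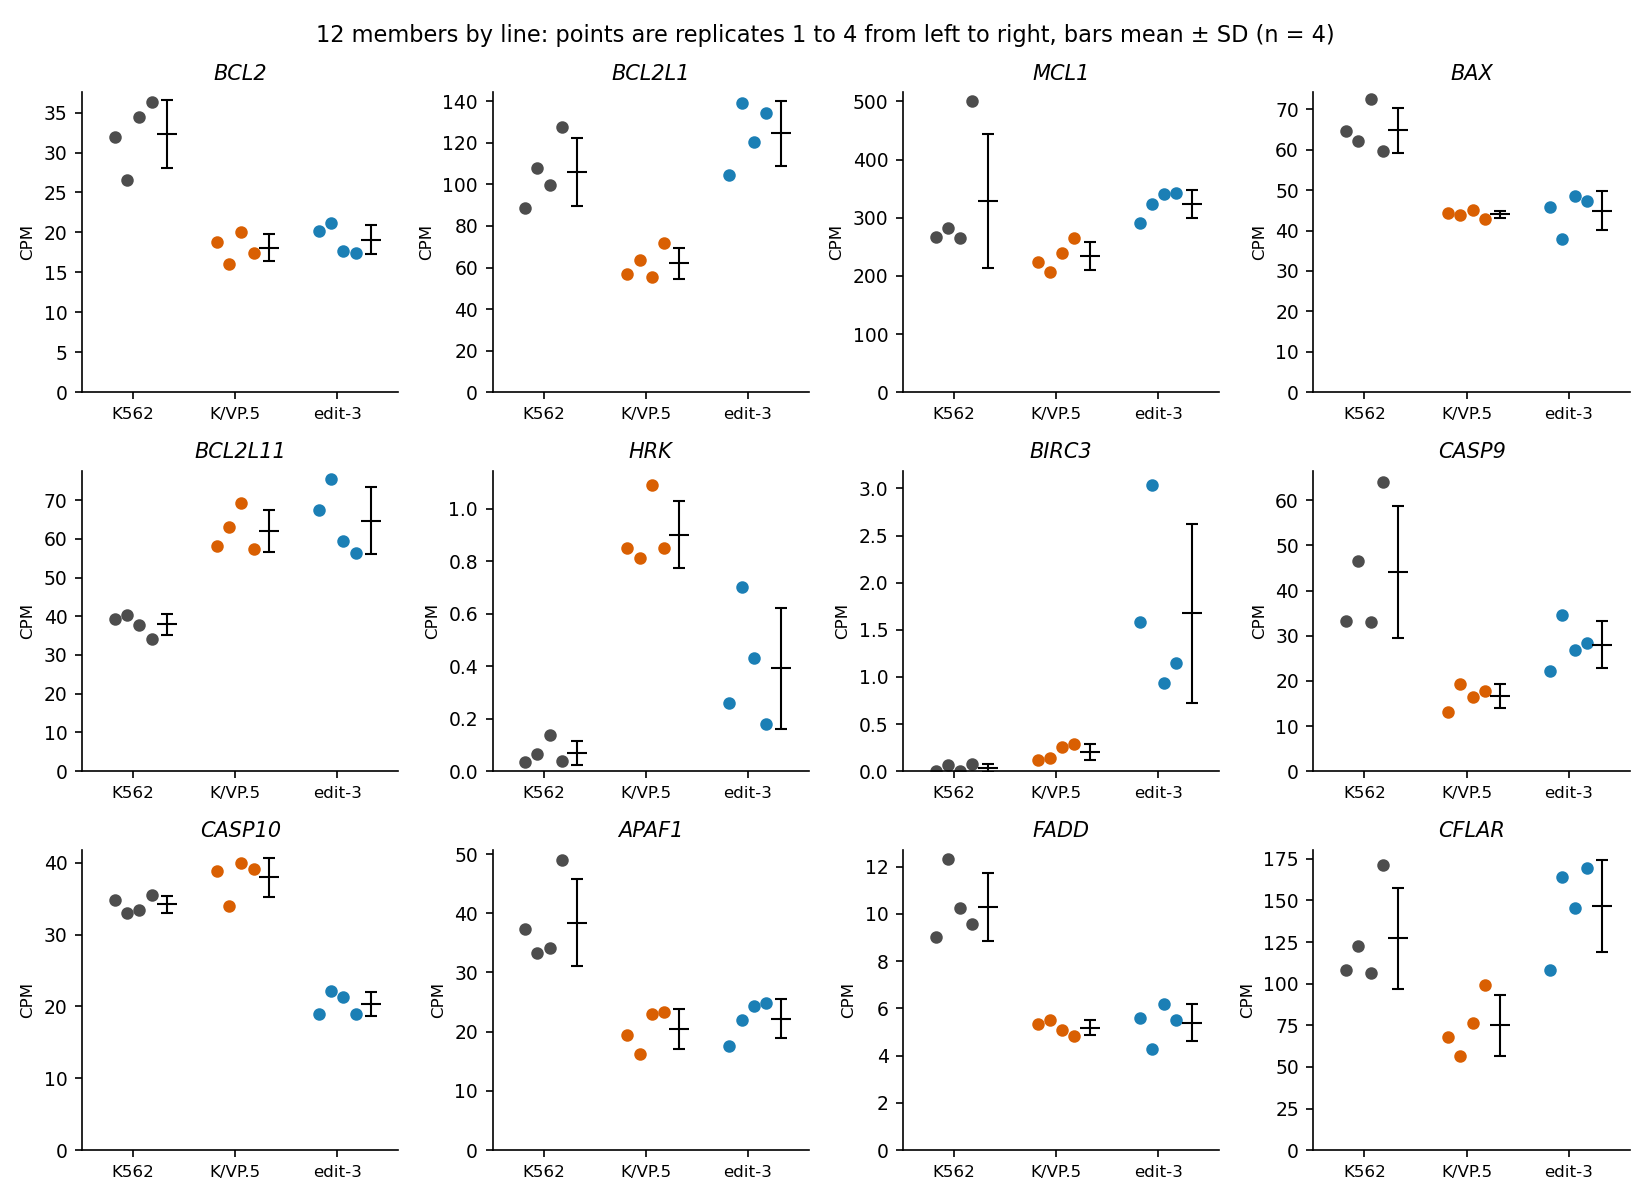
CPM (y axis, linear from 0) of 12 members in the 3 lines (x axis), each point a library in the order of replicates 1 to 4, with the mean ± SD (n = 4) beside them. BCL2, BAX, APAF1 and FADD are high in K562 and low in both other lines, BCL2L1, CASP9 and CFLAR are lowest in K/VP.5, and CASP10 is lowest in edit-3.

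The IAP genes included BIRC3, with the highest log2 fold change of any tested member over the 3 comparisons, and others with small changes. BIRC3 (chr11:102317450-102339403, plus strand) encodes cIAP2, a ubiquitin ligase of TNF receptor signalling and a known target of NF-kappaB. It had 0, 0.0654, 0 and 0.0804 CPM in K562, 0.113, 0.142, 0.254 and 0.293 in K/VP.5 and 1.58, 3.03, 0.936 and 1.14 in edit-3, from 4, 26 and 204 reads. The 3 lines did not overlap, and edit-3 was highest. BIRC3 passed the filter on low counts only through edit-3, and fits of K/VP.5 and K562 alone left it out. Its calls rest on that entry, including the call in K/VP.5 versus K562. BIRC3 was 8.16-fold higher in edit-3 than in K/VP.5 (log2 3.03, SE 0.46, adjusted p = 0.00020) and higher by 5.41 on the log2 scale in edit-3 than in K562 (SE 0.63, adjusted p = 7.0e-06). The ratio of edit-3 to K562 reads, scaled to library size, was 47.3 with an exact 95% Poisson interval of 18.2 to 175, which covers counting error only. The value of 2.38 in K/VP.5 versus K562 (SE 0.85, adjusted p = 0.041) lost its call without K562 replicates 1 or 3 or K/VP.5 replicates 3 or 4 (adjusted p = 0.080 to 0.11).

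BIRC2 lies beside BIRC3 at chr11:102347211-102378670 on the plus strand and encodes the close relative cIAP1. It ranged from 38.6 to 44.1 CPM in K562, 44.8 to 46.2 in K/VP.5 and 46.2 to 54.3 in edit-3. Its log2 fold changes were 0.11 (adjusted p = 0.28), 0.13 (adjusted p = 0.23) and 0.23 (adjusted p = 0.017) in K/VP.5 versus K562, edit-3 versus K/VP.5 and edit-3 versus K562. The last call was lost without K562 replicate 3 (adjusted p = 0.069) or edit-3 replicate 1 (adjusted p = 0.056). Edit-3 and K562 fitted alone with edgeR gave an adjusted p of 0.067, or 0.055 with the block, and no filter on low counts gave 0.079.

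XIAP (chrX:123859724-123913979, plus strand), the direct inhibitor of caspases 3, 7 and 9, was at 55.9, 50.7, 51.5 and 46.5 CPM in K562, at 35.3, 35.7, 37.9 and 33.2 CPM in K/VP.5 and at 34.6, 36.2, 30.9 and 30.4 CPM in edit-3. K562 was above both other lines in every library. XIAP fell by 0.53 in K/VP.5 versus K562 (SE 0.08, adjusted p = 0.00013) and by 0.63 in edit-3 versus K562 (adjusted p = 2.2e-05), with -0.10 (adjusted p = 0.40) in edit-3 versus K/VP.5. The 20 tested genes nearest to XIAP had a median of -0.51 in K/VP.5 versus K562, and 17 of them had the sign of XIAP. BIRC6, a very large IAP protein, ranged from 308 to 442 CPM. Its call in edit-3 versus K562 (-0.22, adjusted p = 0.0499) was lost without any of K562 replicates 1, 2 or 3 or edit-3 replicates 2, 3 or 4 (adjusted p up to 0.17). Fitting edit-3 and K562 alone with edgeR (adjusted p = 0.086) or using no filter on low counts (0.066) also lost it. BIRC5, which encodes survivin and acts in cell division, did not pass in any comparison (adjusted p = 0.50, 0.56 and 0.98) at line means of 173, 188 and 174 CPM.

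The promoters of BIRC3, HRK and TNFSF10 are shown because these members had the highest log2 fold changes in K/VP.5 versus K562 and came from low levels in K562. Each window holds 250 bases before and 50 bases after the RefSeq start (GRCh38.p14), 5′ to 3′ on the strand of the gene. Capitals mark matches to the NF-kappaB consensus or the GC box GGGCGG, searched on both strands, or to TATAAA. The windows are chr11:102317234-102317533 (plus), chr12:116881392-116881691 (minus) and chr3:172523381-172523680 (minus).
BIRC3: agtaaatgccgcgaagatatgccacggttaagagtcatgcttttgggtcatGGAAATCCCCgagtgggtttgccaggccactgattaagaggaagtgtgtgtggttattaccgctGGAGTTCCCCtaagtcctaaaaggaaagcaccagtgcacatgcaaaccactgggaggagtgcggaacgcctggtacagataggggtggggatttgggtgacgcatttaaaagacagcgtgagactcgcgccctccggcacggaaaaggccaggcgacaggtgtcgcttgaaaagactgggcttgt
HRK: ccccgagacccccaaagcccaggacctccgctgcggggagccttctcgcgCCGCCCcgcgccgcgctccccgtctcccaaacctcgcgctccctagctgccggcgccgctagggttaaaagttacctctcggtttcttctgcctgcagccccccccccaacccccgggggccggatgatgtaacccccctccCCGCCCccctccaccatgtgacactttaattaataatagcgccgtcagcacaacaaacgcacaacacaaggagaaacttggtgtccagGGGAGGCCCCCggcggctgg
TNFSF10: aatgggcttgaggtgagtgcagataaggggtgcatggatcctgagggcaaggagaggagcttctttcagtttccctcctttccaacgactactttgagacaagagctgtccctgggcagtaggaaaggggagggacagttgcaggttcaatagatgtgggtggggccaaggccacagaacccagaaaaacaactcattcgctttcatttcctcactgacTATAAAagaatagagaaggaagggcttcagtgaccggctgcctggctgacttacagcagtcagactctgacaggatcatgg
The BIRC3 window held 2 NF-kappaB matches, from -199 to -190 and from -135 to -126 relative to the start, and 15 CpG. In the HRK window there were 25 CpG, GC boxes from -200 to -195 and from -58 to -53, and 2 overlapping NF-kappaB matches from 31 to 41 downstream of the start. TNFSF10 had 3 CpG and TATAAA from -31 to -26. Of all 35116 windows in the RefSeq table, 11.3% held an NF-kappaB match, 45.0% a GC box and 11.5% TATAAA, and the median was 14 CpG. These are matches of letters and do not show binding.

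Among the 5 caspases, CASP9 and CASP10 changed, and CASP2, CASP6 and CASP8 did not pass in any comparison (edgeR, lowest adjusted p = 0.11). CASP9 (chr1:15490832-15526534, minus strand), the initiator of the apoptosome, had 33.3, 46.5, 33.0 and 63.9 CPM in K562, 13.0, 19.3, 16.5 and 17.8 in K/VP.5 and 22.1, 34.7, 26.9 and 28.3 in edit-3. K/VP.5 was lowest without overlap, and edit-3 overlapped the lower K562 libraries. CASP9 was 2.65-fold lower in K/VP.5 than in K562 (log2 fold change -1.41, SE 0.21, adjusted p = 0.00017). It was higher by 0.75 in edit-3 than in K/VP.5 (adjusted p = 0.021) and stood at -0.66 (adjusted p = 0.024) in edit-3 versus K562. The rise lost its call without K/VP.5 replicates 1 or 3 or edit-3 replicates 2 or 4 (adjusted p = 0.052 to 0.071). With no filter on low counts the rise was not called either (edgeR adjusted p = 0.074). The value against K562 was -0.43 (adjusted p = 0.053) without K562 replicate 4, and its call was also lost without edit-3 replicates 1 or 3 (adjusted p = 0.066 and 0.057). No filter on low counts gave an edgeR adjusted p of 0.069 against K562.

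CASP10 (chr2:201182881-201229406, plus strand), a receptor-route initiator related to caspase 8, was at 34.8, 33.1, 33.5 and 35.6 CPM in K562, at 38.8, 34.0, 39.9 and 39.2 CPM in K/VP.5 and at 18.9, 22.1, 21.3 and 18.9 CPM in edit-3. Every edit-3 library was far below the other 8, which overlapped. CASP10 was 1.87-fold lower in edit-3 than in K/VP.5 (log2 fold change -0.90, SE 0.08, adjusted p = 1.1e-06) and 1.69-fold lower than in K562 (adjusted p = 2.9e-06). K/VP.5 versus K562 gave 0.15 (adjusted p = 0.16). CFLAR, CASP10 and CASP8 follow each other on chromosome 2, from 201116104 to 201287711. In edit-3 versus K/VP.5 their log2 fold changes were 0.97, -0.90 and 0.16, so these neighbours did not move together. CASP8 ranged from 17.9 to 29.4 CPM over the 12 libraries.

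Of the 4 apoptosome and mitochondrial factors, APAF1 alone was called. APAF1 (chr12:98645141-98735433, plus strand), the scaffold on which caspase 9 assembles, had 37.3, 33.2, 34.1 and 49.0 CPM in K562, 19.4, 16.2, 23.0 and 23.3 in K/VP.5 and 17.6, 22.0, 24.4 and 24.9 in edit-3. K562 lay above both other lines in every library. APAF1 fell by 0.91 in K/VP.5 versus K562 (SE 0.15, adjusted p = 0.00024) and by 0.79 in edit-3 versus K562 (adjusted p = 0.00067), with 0.12 (adjusted p = 0.64) between edit-3 and K/VP.5. CYCS, the gene of cytochrome c, had line means of 181, 181 and 179 CPM and adjusted p of at least 0.94. HTRA2, a mitochondrial protease that binds IAP proteins, had 49.3, 44.9 and 43.7 CPM and did not pass (lowest adjusted p = 0.19). Exons of LOXL3 and AUP1 on the other strand cover 36.9% of the HTRA2 exon bases, and how reads there were assigned is not known. The first DIABLO row, for the IAP antagonist SMAC, had 3.55, 3.89 and 3.58 CPM and did not pass. The second row had 24, 22 and 10 reads. Exons of the first row, AC048338.1 and B3GNT4 together cover 85.4% of its exon bases, so the level of DIABLO is uncertain.

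On the receptor route, TNFSF10 was higher in K/VP.5 and edit-3 than in K562. TNFSF10 (chr3:172505508-172523507, minus strand) encodes TRAIL, the ligand of TNFRSF10A and TNFRSF10B. It had 0.353, 0.0982, 0.307 and 0.241 CPM in K562, 0.481, 1.03, 0.545 and 0.878 in K/VP.5 and 0.613, 0.900, 0.540 and 0.753 in edit-3. All K562 libraries were below the other 8, which overlapped. TNFSF10 was 2.91-fold higher in K/VP.5 than in K562 (log2 1.54, SE 0.37, adjusted p = 0.0039) and 2.80-fold higher in edit-3 (adjusted p = 0.0048). These values rest on 28, 94 and 86 reads in K562, K/VP.5 and edit-3.

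TNFRSF10A, the receptor DR4, had 65.4, 61.1, 63.8 and 52.3 CPM in K562, 49.3, 45.8, 45.0 and 45.8 in K/VP.5 and 63.1, 52.2, 60.9 and 57.2 in edit-3. K/VP.5 was below both other lines in every library. TNFRSF10A fell by 0.38 in K/VP.5 versus K562 (SE 0.08, adjusted p = 0.0023) and was higher by 0.33 in edit-3 than in K/VP.5 (adjusted p = 0.011), with -0.06 (adjusted p = 0.65) in edit-3 versus K562. In edit-3 versus K/VP.5 the 20 nearest tested genes had a median of 0.34, and 19 of them had the sign of TNFRSF10A. TNFRSF10B, the receptor DR5 and a p53 target, was at 36.2, 38.8, 38.2 and 77.1 CPM in K562 and ranged from 41.5 to 63.9 in K/VP.5 and from 35.3 to 78.3 in edit-3. It did not pass in any comparison (lowest adjusted p = 0.33). Without K562 replicate 4 it was called higher in edit-3 than in K562 (0.73, adjusted p = 0.037).

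TNFRSF1A, the TNF receptor, had 67.6, 81.3, 78.6 and 109 CPM in K562, 59.8, 61.8, 74.5 and 74.2 in K/VP.5 and 79.6, 116, 101 and 107 in edit-3. Edit-3 was above K/VP.5 in every library, and K562 overlapped both. TNFRSF1A was higher by 0.58 in edit-3 than in K/VP.5 (SE 0.14, adjusted p = 0.0092). K/VP.5 versus K562 gave -0.31 (adjusted p = 0.11). The replicate block put it at -0.30 (adjusted p = 0.021). It also passed without K562 replicate 1 (-0.41, adjusted p = 0.038), but without K562 replicate 4 it was -0.17 (adjusted p = 0.32). Edit-3 versus K562 gave 0.26 (adjusted p = 0.17), and 0.41 (adjusted p = 0.015) without K562 replicate 4. FAS, the receptor CD95, had 1, 4 and 31 reads in K562, K/VP.5 and edit-3 and did not pass the filter on low counts. The edit-3 libraries held 0.291, 0.167, 0.144 and 0.391 CPM, each above the highest library of the other lines, at 0.0532. Scaled to library size, the ratio of edit-3 to K/VP.5 reads was 8.18 (exact 95% Poisson interval 2.89 to 31.9) and that of edit-3 to K562 reads 28.7 (4.79 to 1171). Fitted without the filter, FAS was higher in edit-3 than in K/VP.5 (log2 2.85, SE 0.71, edgeR adjusted p = 0.0043) and than in K562 (log2 4.30, SE 0.90, adjusted p = 0.00026), fitted values that lean on the prior count at so few reads.

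All 3 receptor complex genes were lower in K/VP.5 than in K562 (edgeR, adjusted p under 0.05), as were 18.3% of all genes tested. CFLAR (chr2:201116104-201176687, plus strand), which encodes the caspase 8 inhibitor FLIP, had 108, 123, 106 and 171 CPM in K562, 67.8, 56.3, 76.3 and 99.4 in K/VP.5 and 108, 164, 146 and 169 in edit-3. K/VP.5 lay below both other lines in every library. CFLAR fell by 0.76 in K/VP.5 versus K562 (SE 0.20, adjusted p = 0.010), was 1.96-fold higher in edit-3 than in K/VP.5 (log2 0.97, SE 0.20, adjusted p = 0.0038) and was at 0.21 (adjusted p = 0.46) in edit-3 versus K562.

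FADD (chr11:70203163-70207390, plus strand), the adaptor between death receptors and caspase 8, had 9.04, 12.3, 10.3 and 9.57 CPM in K562, 5.32, 5.52, 5.09 and 4.82 in K/VP.5 and 5.58, 4.30, 6.19 and 5.51 in edit-3. K562 was above both other lines without overlap. FADD was 1.99-fold lower in K/VP.5 than in K562 (log2 fold change -0.99, SE 0.14, adjusted p = 4.2e-05) and 1.91-fold lower in edit-3 (adjusted p = 6.5e-05), with 0.06 (adjusted p = 0.81) between edit-3 and K/VP.5. The antisense gene AP000879.1 covers 54.9% of its exon bases, so reads of the 2 genes cannot be told apart. The 20 nearest tested genes had a median of -0.44 in K/VP.5 versus K562, and 17 of them had the sign of FADD.

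RIPK1, a kinase that steers TNF receptor signals to survival or death, had 93.7, 116, 86.1 and 103 CPM in K562, 58.5, 77.3, 53.9 and 63.6 in K/VP.5 and 71.8, 79.4, 71.1 and 83.4 in edit-3. K562 was above both other lines in every library, and edit-3 overlapped K/VP.5. RIPK1 fell by 0.66 in K/VP.5 versus K562 (SE 0.12, adjusted p = 0.00037) and by 0.39 in edit-3 versus K562 (adjusted p = 0.015). Edit-3 versus K/VP.5 gave 0.27 (adjusted p = 0.11), and 0.36 (adjusted p = 0.032) without K/VP.5 replicate 2. The 20 nearest tested genes had a median of -0.79 in K/VP.5 versus K562, and 14 of them had the sign of RIPK1. Neighbours did not go with every called member in K/VP.5 versus K562. Around BCL2 their median was 0.18, with 5 of 20 sharing its sign, around TNFSF10 -0.59 with 4, and around BIRC3 -0.08 with 6. CASP2 was not called, though 18 of 20 shared its sign (median -0.49). Whether neighbourhood had a part in the XIAP, TNFRSF10A, FADD and RIPK1 values was not tested.

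Ratios within a library show how opposing members stood to each other in each line. They are ratios of CPM without a length term, so they compare lines and not genes, and they carry no test. The ratio of BCL2L11 to BCL2L1 was 0.365 ± 0.072 (SD, n = 4) in K562, 1.01 ± 0.18 in K/VP.5 and 0.525 ± 0.095 in edit-3. It ran from 0.267 to 0.441 in K562, 0.797 to 1.25 in K/VP.5 and 0.419 to 0.645 in edit-3, so K/VP.5 stood above both other lines. The ratio of BCL2L11 to BCL2 was 1.20 ± 0.25 in K562, 3.44 ± 0.35 in K/VP.5 and 3.38 ± 0.14 in edit-3, and K562 was below the others in every library. For BAX to BCL2L1 the ratio was 0.625 ± 0.128, 0.719 ± 0.097 and 0.367 ± 0.072, with every edit-3 library below the other 8. CFLAR to CASP8 stood at 6.55 ± 2.03, 3.74 ± 1.16 and 6.59 ± 1.67, and the lines overlapped. CASP10 to CASP8 was 1.74 ± 0.18, 1.88 ± 0.21 and 0.912 ± 0.169, lowest in edit-3 without overlap. XIAP to CASP9 was 1.26 ± 0.44, 2.18 ± 0.41 and 1.21 ± 0.24, highest in K/VP.5 without overlap. BAX to BCL2 was 2.03 ± 0.29, 2.45 ± 0.20 and 2.38 ± 0.45, and the lines overlapped. BCL2L11 to MCL1 was 0.125 ± 0.038, 0.267 ± 0.039 and 0.201 ± 0.037, with every K562 library below the others.

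**Figure D4:**
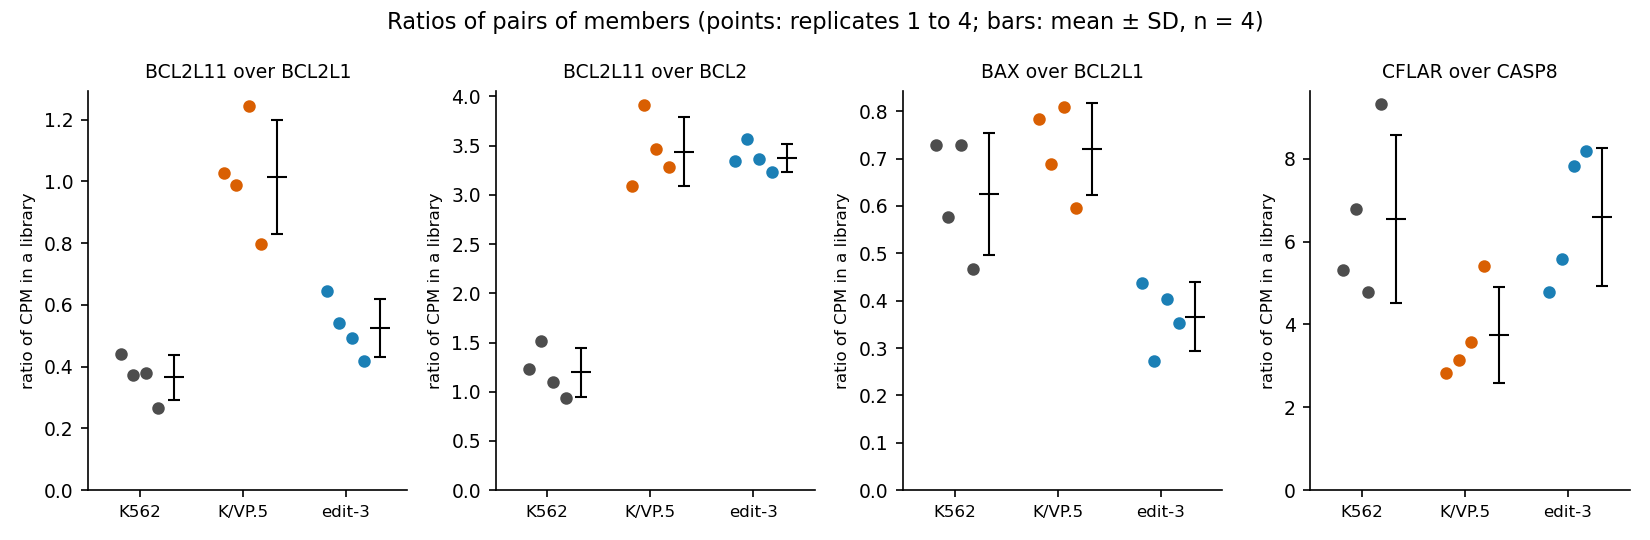
Ratios of CPM within each library (y axis, linear from 0) for 4 pairs of members in the 3 lines (x axis), with points for replicates 1 to 4 and bars for mean ± SD (n = 4). K/VP.5 is highest for BCL2L11 over BCL2L1, both derived lines are high for BCL2L11 over BCL2, and edit-3 is lowest for BAX over BCL2L1.

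A list of 57 other apoptosis genes, of which 44 were tested, gave the surroundings of the members. In K/VP.5 versus K562, 4 of these were higher and 11 lower, in edit-3 versus K/VP.5 8 were higher and 1 lower, and in edit-3 versus K562 6 were higher and 11 lower. These are 34.1%, 20.5% and 38.6% of the 44, against 36.6%, 23.6% and 39.2% of all genes tested. Their medians were -0.11, 0.05 and -0.14, against medians near 0 for all genes tested. TNFAIP3, which encodes the NF-kappaB inhibitor A20, rose by 2.39 in K/VP.5 versus K562 (edgeR, adjusted p = 0.00024), 1.68 in edit-3 versus K/VP.5 (adjusted p = 0.0026) and 4.07 in edit-3 versus K562 (adjusted p = 3.4e-06), at line means of 2.596, 13.7 and 43.7 CPM. AIFM2, a mitochondrial factor relative best known as a ferroptosis suppressor, had 23.3 to 30.0 CPM in K562, 1.08 to 2.09 in K/VP.5 and 1.13 to 1.94 in edit-3. Its log2 fold change was -4.20 in K/VP.5 versus K562 (adjusted p = 6.4e-10) and -4.24 in edit-3 versus K562 (adjusted p = 5.0e-10). The other named genes that were higher in K/VP.5 than in K562 were FAIM (0.63), DFFB (0.54) and TNFRSF21 (0.36), and those lower were TNFRSF1B (-0.73), PIDD1 (-0.71) and CRADD (-0.58). In edit-3 versus K/VP.5, CASP4 (1.48), TNFAIP8 (1.28) and OPA1 (0.55) were higher, and DFFA (-0.38), the inhibitor of the apoptotic DNase, was lower. In edit-3 versus K562, CASP4 (1.501), TNFAIP8 (0.86) and FAIM (0.70) were higher, and MARCH5 (-0.51), TNFRSF1B (-0.39) and PIDD1 (-0.38) were lower.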

How the data were processed

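The values came from 12 RNA-seq libraries, 4 of each line, grouped by source name and numbered by title. The free-text description gives the parental name to every library and was not used. The authors deposited 1 table of raw counts, not normalized, for 58395 genes. The tools named in the submitters' processing notes are HISAT2 2.1.0, featureCounts and Subread 1.5.1, with GRCh38. Not given in the sources used here are the strand setting, the treatment of multi-mapping reads and the annotation release. Gene positions, exon lengths and overlaps came from GENCODE release 29 (GRCh38), which held 58275 of the identifiers and all 39 rows of the members. Besides the overlaps given with single genes, other genes covered 16.6% of the exon bases of TNFRSF10A, 12.0% of CFLAR and 10.9% of BCL2L11. Promoters came from RefSeq (GRCh38.p14), which matched 31 of 38 symbols.

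In R 4.3.3, genes were filtered with filterByExpr, leaving 18286 with 99.9% of reads. Models of edgeR 4.0.16 with 1 coefficient per line, TMM scaling and robust quasi-likelihood tests were fitted to all 12 libraries, and p-values received a Benjamini-Hochberg adjustment over all genes tested. The SE is the size of the log2 fold change divided by the square root of F. CPM uses TMM-scaled library sizes, and CPM per kb divides by the exon length. The procedure was also run on simulated data with the same spread for every gene and few changed genes. That setting is unlike these data, so the run checks the code and not the calls here. Comparing replicates pairwise gave a chi-square per degree of freedom of 6.68 to 67.4, so none looked like a second copy. Counting intervals cover counting error only.

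For K562 and K/VP.5, libraries with the same number deviated together from their line means (r = 0.42, 0.23, 0.20 and 0.62), and the labels are silent on pairing. The main values, SE and calls come from the fit without pairing. Pairing by number entered only through the replicate block, as an alternative. Edit-3 libraries 1 and 4 were closest to the same number in both other lines (r = 0.39 to 0.59). Edit-3 libraries 2 and 3 were not (r = -0.12 to 0.04). Alternatives were DESeq2 1.42.0 and its size factors, stricter and no filters, a fit of 2 lines, the replicate block, a 2-fold rule and leaving out each library. All 38 members are accounted for, and those called in at least 1 comparison are described in detail. Of the other pathway genes, up to 4 per direction and comparison with the largest changes were named, among those called with a mean of at least 1 CPM in 1 line. Members and lists were chosen with earlier results of these data known.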

Additional observations from a re-analysis of the deposited data

Results flagged for a closer look

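In 11 of 115 groups of 4 libraries, 1 library stood apart from the other 3 by Dixon's test, which chance alone does in about 1 of 20 groups of normally distributed values. K562 replicate 4 was the library in 3 of them, with MCL1 at 501 CPM (others 265 to 282), TNFRSF10B at 77.1 CPM (others 36.2 to 38.8) and CASP2 at 114 CPM (others 125 to 126). K562 replicate 3 had BIRC2 at 38.6 CPM (others 43.3 to 44.1) and held the 3 reads of BCL2A1, at 0.102 CPM. The single K562 read of FAS was in replicate 1, at 0.0353 CPM. A single library held all K562 reads of BCL2A1, and likewise of FAS, so these flags were fixed in advance and the rate above does not cover them. In K/VP.5, replicate 3 had HRK at 1.09 CPM (others 0.814 to 0.852). In edit-3, replicate 1 had CYCS at 222 CPM (others 161 to 168), replicate 2 had PMAIP1 at 14.6 CPM (others 10.1 to 10.4), and replicate 3 had BCL2L2 at 47.6 CPM (others 38.7 to 40.1) and DIABLO at 4.29 CPM (others 3.33 to 3.37).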

How the results depend on the processing

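Of the member values recomputed under the alternatives, 1466 kept their direction and their side of the threshold, 56 lost their call, 31 gained one and 51 changed sign, of which 50 were called neither before nor after. The exception was MCL1 in edit-3 versus K562, called without K562 replicate 4. With the rule of at least 2-fold, the numbers called, higher and lower in K/VP.5 versus K562 were 2457, 1500 and 957 genes and 4, 3 and 1 members. In edit-3 versus K/VP.5 they were 1522, 941 and 581 genes and 4, 3 and 1 members, and in edit-3 versus K562 2739, 1837 and 902 genes and 4, 4 and 0 members. With at least 1 CPM in 4 libraries, which drops low genes such as BIRC3 and HRK, 3 members were higher in K/VP.5 versus K562, 1 lower in edit-3 versus K/VP.5 and 6 higher in edit-3 versus K562. In K/VP.5 versus K562 that filter left 32 members and 14585 genes, of which 2932 genes were higher. Leaving out 1 library at a time gave 3 to 6 members higher in K/VP.5 versus K562, and 7 to 11 members called and 1 to 2 lower in edit-3 versus K/VP.5. Member counts without a count over all genes beside them do not show whether the members or the whole set of genes moved.

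Signs of values near 0 changed. For CYCS in K/VP.5 versus K562 the log2 fold change was -0.0013 with the stricter filter. For BIRC5 in edit-3 versus K562 it was -0.00073 with DESeq2's size factors, -0.00071 with DESeq2 and -0.0042 with only those lines. With the replicate block, MCL1 in edit-3 versus K562 was 0.026, and with the block and only those lines it was 0.025 and DIABLO -0.0023. Without 1 library, K/VP.5 versus K562 ranged from -0.13 to 0.088 for CASP6, -0.076 to 0.40 for TNFRSF10B, -0.046 to 0.064 for CYCS, -0.31 to 0.030 for BIK, -0.47 to 0.11 for BBC3 and -0.043 to 0.11 for CASP8. Edit-3 versus K/VP.5 ranged from -0.24 to 0.11 for TNFSF10, -0.013 to 0.10 for BAX, -0.021 to 0.12 for BCL2L11, -0.12 to 0.037 for HTRA2, -0.14 to 0.032 for CYCS and -0.015 to 0.15 for FADD. Edit-3 versus K562 ranged from -0.086 to 0.042 for DIABLO, -0.13 to 0.046 for CYCS, -0.11 to 0.25 for MCL1, -0.10 to 0.071 for BIRC5 and -0.013 to 0.039 for CASP2. The causes were not tested.

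With the replicate block, 21, 13 and 23 members were called in the 3 comparisons. The 21 stand beside 7681 of the 18286 genes tested, against 18 members and 6688 genes without the block. No such count is given for the 13 and 23, so these do not show a change particular to the members. In K/VP.5 versus K562, where libraries of the same number deviated together, the block with all lines changed the calls of MCL1, BMF and TNFRSF1A. The block on those lines alone changed those of MCL1, TNFRSF1A and BID, with BMF at an adjusted p of 0.052. No other member tested in those fits changed its call. BIRC3 fell below the filter in the fits of K/VP.5 and K562 alone, so it has no value there. HRK likewise has no value in the fits of edit-3 and K562 alone. For edit-3 a pairing by number held only in part. Edit-3 libraries 1 and 4 were closest to the same number in the other lines, and libraries 2 and 3 were not. Calls gained there by the block with all lines rest on these numbers. They were MCL1 and RIPK1 in edit-3 versus K/VP.5, and BCL2L1, BMF and TNFRSF1A in edit-3 versus K562. Depth limits HRK, BIK, BIRC3, TNFSF10 and FAS, whose folds rest on few reads. Counts sum over transcripts, so the isoforms of BCL2L1, MCL1, CASP9 and CFLAR that differ in function were not separated.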
